A study of Mus musculus with 4 samples.

Results

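The 8 genes described here were Hmgcs1, Idi1, Fdft1, Sqle, Lss, Cyp51, Dhcr7 and Insig1, out of 33565 genes counted. They were taken by symbol as a list of cholesterol synthesis and uptake genes. Of the 8, 7 encode enzymes of cholesterol synthesis and 1, Insig1, encodes a regulator of it, and none encodes a receptor for cholesterol uptake. The genes were measured in single cells of 3 mouse cell lines that were barcoded and sequenced together by CapSeq, a split-pool method in which a BC1 sequence from the barcoding plate marks the line. Neuro-2a (N2a) is a neuroblastoma line and NIH/3T3 a fibroblast line, both grown in DMEM with fetal bovine serum and penicillin-streptomycin. The mouse embryonic stem cells (mESCs, E14TG2a) were grown on gelatin in DMEM with a higher serum concentration, leukemia inhibitory factor, CHIR99021 and PD0325901. Each line was 1 set of BC1 sequences within this pooled experiment, called a library below, with no replicate. No test between lines was therefore possible, and line and BC1 position cannot be told apart. In comparisons with mESCs, medium cannot be told apart from line either, whereas N2a and NIH/3T3 shared a medium.

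Animal cells make cholesterol from acetyl-CoA through the mevalonate pathway, which yields isoprenoid units, joins them to squalene, closes the rings to lanosterol and trims lanosterol to cholesterol. The genes of the pathway are known targets of SREBP2 (gene Srebf2), a membrane-bound transcription factor that SCAP carries to the Golgi for cleavage when sterols in the endoplasmic reticulum are low. INSIG proteins hold SCAP in the endoplasmic reticulum when sterols are high, and cells that take up lipoprotein cholesterol from serum are known to lower the pathway.

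Cells were kept if they held 1000 UMIs or more, with mitochondrial genes at 20% of them or less, which gave 2323 N2a, 2037 NIH/3T3 and 2137 mESC cells with median depths of 6185, 4863 and 4803 UMIs. Each line held 32 BC1 sequences. No cell barcode was shared between lines (0 barcodes), which follows from the BC1 sequence being part of the barcode and is no check on the separation. The 5 markers of each line summed, in the line they mark, to 1253 CPM (N2a), 3098 CPM (NIH/3T3) and 4284 CPM (mESCs). In the other lines, no marker was at 0 UMIs, and the lists summed to 12.3 and 46.3 CPM for the N2a list and 9.19 and 14.4 CPM for the mESC list. The NIH/3T3 list was less specific, with 740.2 CPM in N2a, of which S100a6 gave 738.4 CPM, and its surface marker Thy1 was at only 6.0 CPM in NIH/3T3 itself. The part of RNA carried over between lines in the levels below was not tested. Levels (CPM) are the UMIs of a gene summed over cells, per 1000000 UMIs of the line, with exact Poisson intervals at the 95% level that cover counting error only. The lowest, median and highest level over the 32 BC1 sequences of a line are given as technical spread, since these are parts of 1 library and not replicates.

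The sequences before the start sites are shown because SREBP2 is known to act through sterol regulatory elements, often beside CCAAT boxes bound by NF-Y. The 250 bases upstream of the annotated start of the Ensembl canonical transcript were read from GRCm39. Shown are the 5 genes that varied together most clearly across NIH/3T3 cells (below). Fdft1, whose level was close in all 3 lines, is added. Capitals mark TCACNCCAC, 1 spelling of the sterol regulatory element, and CCAAT, each on either strand, so that ATTGG is CCAAT read on the opposite strand. The spellings do not overlap in these windows.
Hmgcs1, chr13:120151732-120151981, plus strand: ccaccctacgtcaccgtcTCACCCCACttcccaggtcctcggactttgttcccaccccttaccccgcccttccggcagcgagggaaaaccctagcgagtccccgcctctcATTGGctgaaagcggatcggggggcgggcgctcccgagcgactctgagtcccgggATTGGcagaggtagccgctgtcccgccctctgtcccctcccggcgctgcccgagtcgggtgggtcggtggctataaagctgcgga
Idi1, chr13:8935669-8935918, plus strand: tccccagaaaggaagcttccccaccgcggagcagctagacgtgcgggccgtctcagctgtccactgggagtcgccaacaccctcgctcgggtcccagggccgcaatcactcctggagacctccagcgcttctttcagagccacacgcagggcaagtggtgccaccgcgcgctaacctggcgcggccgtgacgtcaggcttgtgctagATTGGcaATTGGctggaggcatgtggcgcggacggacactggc
Sqle, chr15:59186632-59186881, plus strand: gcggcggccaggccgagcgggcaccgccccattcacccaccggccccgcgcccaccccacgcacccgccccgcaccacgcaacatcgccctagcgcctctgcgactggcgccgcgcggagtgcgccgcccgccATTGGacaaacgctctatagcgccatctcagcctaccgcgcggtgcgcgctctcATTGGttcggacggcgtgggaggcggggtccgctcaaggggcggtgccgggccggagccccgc
Cyp51, chr5:4154747-4154996, minus strand: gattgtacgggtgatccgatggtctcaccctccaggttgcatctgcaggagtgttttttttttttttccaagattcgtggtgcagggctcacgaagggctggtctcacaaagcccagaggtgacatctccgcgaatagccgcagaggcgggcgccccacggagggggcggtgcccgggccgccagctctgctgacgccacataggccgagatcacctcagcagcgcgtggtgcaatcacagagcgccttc
Insig1, chr5:28276077-28276326, plus strand: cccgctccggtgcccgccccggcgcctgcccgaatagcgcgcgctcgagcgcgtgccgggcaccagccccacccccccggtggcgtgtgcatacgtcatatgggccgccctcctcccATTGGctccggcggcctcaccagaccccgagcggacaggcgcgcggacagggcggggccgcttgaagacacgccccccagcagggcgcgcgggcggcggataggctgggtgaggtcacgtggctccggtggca
Fdft1, chr14:63415443-63415692, minus strand: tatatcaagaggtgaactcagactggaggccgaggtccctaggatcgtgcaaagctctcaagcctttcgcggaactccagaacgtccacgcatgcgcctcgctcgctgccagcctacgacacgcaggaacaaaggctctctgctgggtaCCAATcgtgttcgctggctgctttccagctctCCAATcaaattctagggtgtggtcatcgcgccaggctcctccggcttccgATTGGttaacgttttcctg

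Among 21770 promoters of protein-coding genes, 1.12% held TCACNCCAC in this window, and Hmgcs1 was the only gene of the 8 that did, at 232 bases upstream. CCAAT stood in 36.5% of all promoters and in 6 of the 8 genes, namely Hmgcs1, Idi1, Fdft1, Sqle, Lss and Insig1. Fdft1 held 3 matches, Hmgcs1, Idi1 and Sqle 2 each, and Lss and Insig1 1 each. Of 14 other synthesis genes, 10 held CCAAT and 0 held TCACNCCAC. Cyp51 and Dhcr7 held neither spelling upstream, and in Cyp51 a CCAAT lies just downstream of the start. For Dhcr7 the start used, chr7:143383365, lies inside the gene, which begins at 143376740. Other starts of the 8 genes were not searched. A match is a string of letters, and a window without it says only that these letters are not there.

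Summed over the 8 genes, NIH/3T3 cells had the highest level and mESCs the lowest. The summed level was 1256 CPM in NIH/3T3 (95% interval 1235 to 1276), 836.8 CPM in N2a (823.5 to 850.3) and 514.4 CPM in mESCs (501.9 to 527.3). These sums correspond to 0.126%, 0.0837% and 0.0514% of all UMIs of the line. Over BC1 sequences, the sum ranged from 1033 to 1469 CPM (median 1247) in NIH/3T3, from 730.4 to 934.2 CPM (median 834.5) in N2a and from 407.9 to 676.2 CPM (median 517.7) in mESCs. The 3 ranges did not overlap. The share of all genes whose BC1 ranges separate between lines was not counted. Separate ranges, here and below, are therefore not a trait particular to these genes. NIH/3T3 was 1.50-fold higher than N2a (1.47 to 1.54) and 2.44-fold higher than mESCs (2.37 to 2.51), and N2a was 1.63-fold higher than mESCs (1.58 to 1.68).

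Counting a gene as different when its CPM ratio was at least 2-fold, 2 of the 8 genes differed between N2a and NIH/3T3, where 37.1% of 10459 genes with at least 10 CPM in either line did. Idi1 was higher in NIH/3T3 (18.4% of genes were) and Dhcr7 higher in N2a (18.7%). Between N2a and mESCs, where 42.1% of 10606 genes differed, 3 of 8 were higher in N2a, against 22.4% of genes, and 0 were higher in mESCs, against 19.7%. Between NIH/3T3 and mESCs, where 43% of 10519 genes differed, 5 of 8 were higher in NIH/3T3, against 22.5% of genes, and 0 were higher in mESCs, against 20.5%. The median log2 ratio of the 8 genes was -0.60 for N2a over NIH/3T3, 0.89 for N2a over mESCs and 1.58 for NIH/3T3 over mESCs, and over all genes tested it was 0.02, 0.06 and 0.05. A single library stood behind each line, so these shares describe the libraries.

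**Figure D1:**
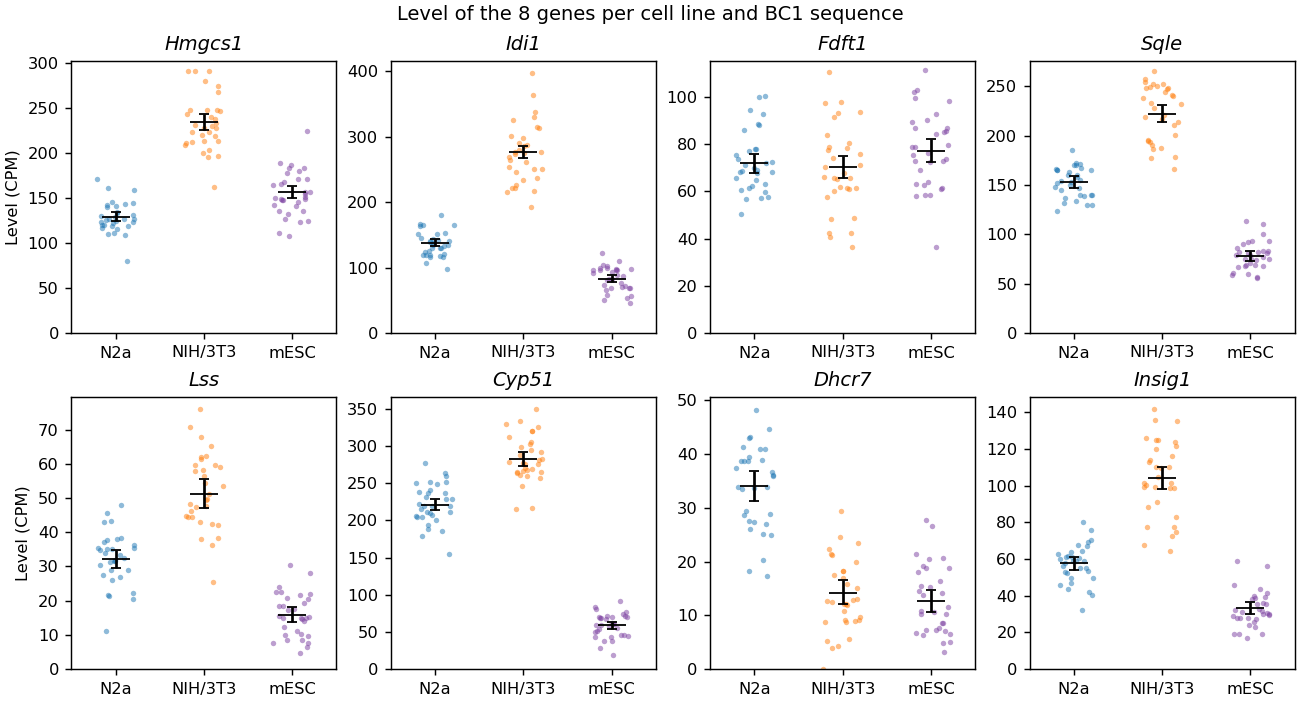
Level of each gene in CPM (y axis, from 0, a separate scale for each gene) in N2a, NIH/3T3 and mESC cells. Small points are the 32 BC1 sequences of a line, long bars the level over all cells of the line, and error bars the 95% Poisson interval. NIH/3T3 points lie above all mESC points for Idi1, Sqle, Cyp51 and Insig1, Fdft1 points overlap in all 3 lines, and Dhcr7 was highest in N2a at 34.0 CPM. The share of all genes whose points separate in this way was not counted.

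Hmgcs1 (ENSMUSG00000093930, chr13:120151915-120170470) encodes the cytosolic HMG-CoA synthase, which makes HMG-CoA at the entry to the mevalonate pathway. It was the only gene of the 8 whose level was lowest in N2a by more than the counting interval. Its level was 234.1 CPM in NIH/3T3 (225.5 to 243.1), 156.3 CPM in mESCs (149.4 to 163.4) and 129.0 CPM in N2a (123.8 to 134.4). The BC1 ranges were 161.4 to 291.0 CPM in NIH/3T3, 107.1 to 223.4 CPM in mESCs and 80.1 to 170.8 CPM in N2a. They overlapped in every pair of lines, although 31 of 32 NIH/3T3 sequences lay above all N2a sequences. NIH/3T3 was 1.81-fold above N2a (1.72 to 1.92) and 1.50-fold above mESCs (1.41 to 1.59). The mESC level was 1.21-fold above N2a (1.14 to 1.29), and only 9 of 32 mESC sequences exceeded all N2a sequences.

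Idi1 (ENSMUSG00000058258, chr13:8935537-8942487) encodes isopentenyl diphosphate isomerase, which interconverts the isoprenoid building blocks. It was highest in NIH/3T3 and lowest in mESCs, with 276.7 CPM in NIH/3T3 (267.3 to 286.4), 137.8 CPM in N2a (132.4 to 143.3) and 83.2 CPM in mESCs (78.2 to 88.4). All 32 NIH/3T3 sequences, at 192.1 to 398.3 CPM, lay above all N2a sequences, at 97.2 to 179.9 CPM, and above all mESC sequences, at 45.1 to 121.6 CPM. NIH/3T3 was 3.33-fold above mESCs (3.10 to 3.57) and 2.01-fold above N2a (1.91 to 2.12), an interval that includes 2-fold. N2a was 1.66-fold above mESCs (1.54 to 1.78), and 23 of 32 N2a sequences exceeded all mESC sequences. Its paralog Idi2 had at most 0.111 CPM in any line.

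Fdft1 (ENSMUSG00000021273, chr14:63382189-63417027) encodes squalene synthase, which commits farnesyl units to sterols. Its level was close in the 3 lines, at 77.2 CPM in mESCs (72.4 to 82.2), 71.8 CPM in N2a (68.0 to 75.9) and 70.2 CPM in NIH/3T3 (65.5 to 75.2). The BC1 ranges, 36.2 to 111.5 CPM, 50.5 to 100.6 CPM and 36.2 to 110.7 CPM, overlapped almost fully. The ratio of N2a to NIH/3T3 was 1.02 (0.937 to 1.12), that of N2a to mESCs was 0.931 (0.855 to 1.01), and that of NIH/3T3 to mESCs was 0.909 (0.827 to 0.999). The last interval just excludes 1. The intervals leave room for a difference of at most 1.21-fold between any pair of these libraries, as far as counting error goes.

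Sqle (ENSMUSG00000022351, chr15:59186869-59203043) encodes squalene epoxidase, an oxygen-dependent and rate-limiting step after squalene. It was at 222.0 CPM in NIH/3T3 (213.5 to 230.7), 153.0 CPM in N2a (147.4 to 158.9) and 77.8 CPM in mESCs (73.0 to 82.9). The mESC sequences, at 55.7 to 114.0 CPM, lay below all N2a sequences, at 123.7 to 185.9 CPM, and below all NIH/3T3 sequences, at 166.5 to 265.2 CPM. NIH/3T3 was 2.85-fold above mESCs (2.65 to 3.08) and 1.45-fold above N2a (1.37 to 1.53). N2a was 1.97-fold above mESCs (1.83 to 2.12), just under the 2-fold limit.

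Lss (ENSMUSG00000033105, chr10:76367298-76392976) encodes lanosterol synthase, which closes the sterol rings. It followed the same order, with 51.2 CPM in NIH/3T3 (47.2 to 55.5), 32.2 CPM in N2a (29.6 to 34.9) and 15.7 CPM in mESCs (13.6 to 18.1). The BC1 ranges were 25.4 to 76.0 CPM, 11.2 to 47.9 CPM and 4.74 to 30.5 CPM, and overlapped in every pair of lines. At the mESC sequence with the fewest, only 2 UMIs were counted. NIH/3T3 was 3.25-fold above mESCs (2.76 to 3.84), and 31 of 32 NIH/3T3 sequences exceeded all mESC sequences. N2a was 2.04-fold above mESCs (1.73 to 2.42), an interval that includes 2-fold, and NIH/3T3 was 1.59-fold above N2a (1.42 to 1.79).

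Cyp51 (ENSMUSG00000001467, chr5:4123416-4154751) encodes the lanosterol demethylase, a cytochrome P450 enzyme. It had the largest ratio of the 8 genes between any pair of lines. Its level was 283.0 CPM in NIH/3T3 (273.5 to 292.9), 221.3 CPM in N2a (214.5 to 228.3) and 58.6 CPM in mESCs (54.4 to 63.0). All mESC sequences, at 19.3 to 91.7 CPM, lay below the N2a sequences, at 155.4 to 277.9 CPM, and the NIH/3T3 sequences, at 215.9 to 349.6 CPM. NIH/3T3 was 4.83-fold (4.46 to 5.24) and N2a 3.78-fold (3.49 to 4.09) above mESCs, whereas NIH/3T3 was 1.28-fold above N2a (1.22 to 1.34) with overlapping sequences.

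Dhcr7 (ENSMUSG00000058454, chr7:143376740-143402149) encodes 7-dehydrocholesterol reductase, a last step to cholesterol. Unlike the other 7 genes, it was highest in N2a, at 34.0 CPM (31.3 to 36.8), with 14.2 CPM in NIH/3T3 (12.1 to 16.5) and 12.6 CPM in mESCs (10.7 to 14.7). N2a sequences ranged from 17.4 to 48.2 CPM, NIH/3T3 sequences from 0 to 29.3 CPM and mESC sequences from 3.15 to 27.7 CPM, so all pairs overlapped, with 21 of 32 N2a sequences above all NIH/3T3 sequences and 23 of 32 above all mESC sequences. The lowest NIH/3T3 sequence held 0 UMIs of the gene among 184737 UMIs, which allows a level of up to 16.2 CPM (3 counts of that total). N2a was 2.39-fold above NIH/3T3 (2.01 to 2.86) and 2.701-fold above mESCs (2.26 to 3.24). The ratio of NIH/3T3 to mESCs was 1.13 (0.901 to 1.41), so a difference between those libraries was not detectable at this depth.

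Insig1 (ENSMUSG00000045294, chr5:28276315-28283668) encodes the sterol-sensing INSIG1 protein that retains SCAP and is itself a target of the pathway it restrains. It followed the order of most enzymes, with 104.2 CPM in NIH/3T3 (98.4 to 110.2), 57.6 CPM in N2a (54.1 to 61.2) and 33.0 CPM in mESCs (29.9 to 36.4). All NIH/3T3 sequences, at 64.6 to 142.1 CPM, lay above all mESC sequences, at 16.9 to 58.8 CPM. N2a sequences, at 32.4 to 80.4 CPM, overlapped with both. NIH/3T3 was 3.15-fold above mESCs (2.82 to 3.54) and 1.81-fold above N2a (1.66 to 1.97), and N2a was 1.74-fold above mESCs (1.55 to 1.96).

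Hmgcs1, Fdft1, Sqle and Cyp51 each overlap a counted protein-coding gene on the opposite strand, namely Nim1k, Ctsb, Washc5 and Akap9, and the strand setting of the counting was not given in the sources used here, so reads from such a pair cannot be told apart. Nim1k was at 22.8, 2.05 and 9.01 CPM in N2a, NIH/3T3 and mESCs, Ctsb at 120.5, 189.2 and 87.3 CPM, and Washc5 at 105.4, 132.9 and 64.3 CPM. Akap9 was nearly level at 195.8, 197.4 and 185.0 CPM, while Cyp51 was not. Of the 8 genes, 0 overlap a gene on the same strand.

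The other genes of the pathway were taken from a list of 14 synthesis genes, 13 of which had at least 10 CPM in at least 1 line of each comparison. Between NIH/3T3 and mESCs, 7 of 13 were at least 2-fold higher in NIH/3T3 and 0 in mESCs, with a median log2 ratio of 1.02, where 22.5% and 20.5% of all genes tested were. Between N2a and NIH/3T3, 4 of 13 were higher in NIH/3T3 (18.4% of all genes) and 1 in N2a (18.7%), with a median of -0.69. Between N2a and mESCs, 2 of 13 were higher in N2a, a smaller share than the 22.4% of all genes, and 0 in mESCs (19.7%), with a median of 0.30. Mvk, the mevalonate kinase, was at 7.35 CPM in N2a, against 40.3 CPM in NIH/3T3 and 11.9 in mESCs. Pmvk, the kinase of the next step, had another order, with 103.6, 39.7 and 27.6 CPM. Hsd17b7, a ketosteroid reductase of the late pathway, was at 80.3, 54.9 and 18.7 CPM. The pathway genes thus did not share 1 order of lines: 8 of the 14 were highest in NIH/3T3, 4 in N2a and 2 in mESCs, and of the 8 genes above, 6 were highest in NIH/3T3.

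**Figure D2:**
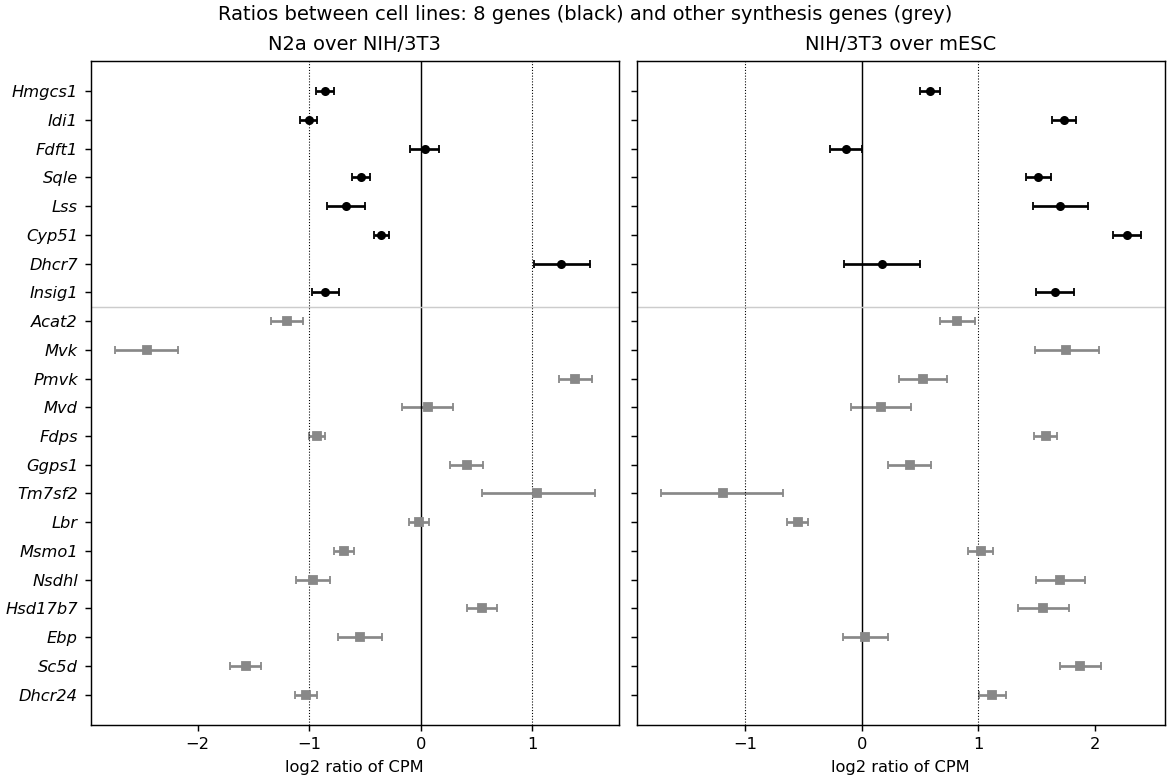
Log2 ratio of CPM (x axis) for the 8 genes (black circles) and 14 other synthesis genes (grey squares), for N2a over NIH/3T3 (left) and NIH/3T3 over mESCs (right), with 95% intervals for counting error and dotted lines at 2-fold. On the right, Idi1, Sqle, Lss, Cyp51 and Insig1 lie beyond the 2-fold line toward NIH/3T3, while Fdft1 and Dhcr7 lie near 0, and on the left Dhcr7 and Pmvk lie on the N2a side.

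Among 12 sterol-sensing genes, N2a had the highest level for 8, NIH/3T3 for 3 and mESCs for 1. At 2-fold or more, 1 was higher in NIH/3T3 than in mESCs (22.5% of all genes were) and 4 were higher in N2a than in mESCs (22.4%). Between N2a and NIH/3T3, 2 were higher in N2a (18.7%) and 1 in NIH/3T3 (18.4%). Between N2a and mESCs the list's share was above that of all genes, and in the other comparisons it was near or below it. The summed list was highest in N2a, at 953.7 CPM, with 781.3 CPM in NIH/3T3 and 571.3 in mESCs, an order that the 8 genes did not have. Srebf2 itself was at 249.2 CPM in N2a, above 160.8 CPM in NIH/3T3 and 105.9 in mESCs. Srebf1, whose products act more on fatty acid genes, was at 47.3, 16.2 and 13.1 CPM. Erlin1, an endoplasmic reticulum protein of sterol sensing, was at 44.5, 112.7 and 36.0 CPM.

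Genes of lipoprotein uptake and cholesterol transport came from a list of 10. Of the 9 tested between NIH/3T3 and mESCs, 7 were higher in NIH/3T3 (22.5% of all genes) and 0 in mESCs (20.5%). Of the 9 tested between N2a and NIH/3T3, 5 were higher in NIH/3T3 (18.4%) and 0 in N2a (18.7%). Between N2a and mESCs, 5 of 8 tested were higher in N2a (22.4%) and 0 in mESCs (19.7%). Lipa, the lysosomal acid lipase that frees cholesterol from its esters, was at 160.6 CPM in NIH/3T3, 4.85 CPM in N2a and 4.46 CPM in mESCs. The lipoprotein receptor gene Lrp8 was at 91.5, 36.7 and 9.58 CPM in the same order, and Soat1, which esterifies cholesterol for storage, at 95.0, 31.97 and 12.8 CPM. Of 5 genes of sterol efflux and the LXR receptors, 3 were tested in each comparison, and only Abca1 passed 2-fold. Abca1, the cholesterol exporter, was at 135.1 CPM in N2a, 20.5 CPM in mESCs and 0.598 CPM in NIH/3T3, from 7 UMIs, which is the reverse of the order of uptake genes between N2a and NIH/3T3. The receptor gene Nr1h2 was at 15.6, 30.1 and 20.9 CPM in N2a, NIH/3T3 and mESCs, and Lpcat3, a phospholipid acyltransferase, at 47.8, 29.3 and 47.5 CPM.

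Fatty acid synthesis genes, a neighbouring SREBP-controlled group, summed to similar levels in the 3 lines, with 1536 CPM in N2a, close to 1625 CPM for NIH/3T3 and 1506 CPM for mESCs. Of 10 genes, 4 were at least 2-fold higher in NIH/3T3 (22.5% of all genes) and 1 in mESCs (20.5%) when those lines were compared. For N2a over NIH/3T3, 2 were higher in N2a (18.7%) and 1 in NIH/3T3 (18.4%), and for N2a over mESCs, 2 were higher in each (22.4% and 19.7%), and these shares were near or below those of all genes. The desaturase gene Scd1 was at 144.7 CPM in NIH/3T3 and 65.8 in mESCs, but at 0.501 CPM in N2a, from 9 UMIs. Elovl6, a fatty acid elongase, was highest in mESCs, at 602.9 CPM, with 265.9 CPM in NIH/3T3 and 169.9 CPM in N2a, and the desaturase gene Fads1 was at 31.2, 87.7 and 48.1 CPM in the same order. Cell cycle lists did not follow the 8 genes: 15 S-phase genes summed to 2106, 2186 and 3037 CPM and 15 G2/M genes to 2661, 3559 and 3964 CPM in N2a, NIH/3T3 and mESCs. The members with the largest ratios were Ung, Rrm2 and Mcm3 among S-phase genes and Cdc20, Ccnb2 and Hmmr among G2/M genes. Of these, only Cdc20 was highest in NIH/3T3, at 135.7 CPM against 126.0 CPM in mESCs, and the other 5 were highest in mESCs.

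Whether the 8 genes varied together from cell to cell was described within each line. Doublets and RNA carried over between lines were not removed, and whether differences between lines entered through them was not tested. Cells were thinned to 2000 UMIs, which left out 253 N2a, 262 NIH/3T3 and 276 mESC cells with fewer. At this depth a cell held few UMIs of the 8 genes, with a median of 2 in NIH/3T3 and 1 in both N2a and mESCs, and a 90th percentile of 5 in NIH/3T3, 4 in N2a and 2 in mESCs. The mean Pearson correlation over the 28 pairs of genes came to 0.0115 across 2070 N2a cells, 0.0186 across 1775 NIH/3T3 cells and 0.0169 across 1861 mESC cells, with 18, 19 and 21 positive pairs. Correlations this weak in sparse counts are no finding by themselves. The 8 genes alone varied by 0.953 to 1.24 times the mean in variance, close to counting: for Insig1 the variance over the mean was 1.06 in NIH/3T3 and 1.01 in both N2a and mESCs (1 for pure counting), against a median of 1.05, 1.05 and 1.06 over all genes measured. The highest value of the 8 was that of Hmgcs1 in NIH/3T3, at 1.24, above 96.1% of genes. The sum of the 8 genes had a variance over mean of 1.17, 1.30 and 1.17, where uncorrelated genes with the same variances would have given 1.06, 1.10 and 1.07.

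With every UMI used, and each count set against the level that the depth of its cell predicts (Pearson residuals, an analysis chosen after the thinned values were seen), the correlations were larger. The mean over the 28 pairs was 0.0495 in 2323 N2a cells, 0.0868 in 2037 NIH/3T3 cells and 0.0546 in 2137 mESC cells, and 26, 25 and 27 pairs were positive. In NIH/3T3, 12 pairs exceeded 0.1, against 5 in N2a and 4 in mESCs. The pairs share a library and a set of depths, so these values describe the cells and are given without a test. They were close within BC1 sequences, at 0.0501, 0.0872 and 0.0533, and without the 5% deepest cells, at 0.0453, 0.0761 and 0.0536. They depended on depth, since the mean was 0.0732 in the deeper and 0.0213 in the shallower cells of N2a, 0.123 and 0.0398 in NIH/3T3, and 0.0844 and 0.0167 in mESCs. The median mESC cell held only 2 UMIs of the 8 genes, where the median cell of either other line held 5. Neither the means nor the counts of pairs above 0.1 were corrected for this, so they do not rank the lines. The variation of the summed genes beyond counting, given below for thinned cells, was highest in mESCs, although it moved with thinning depth and seed. The summed residual of the 8 genes itself correlated with log depth at 0.0381, 0.0736 and 0.0545 and with the mitochondrial percent at -0.0902, -0.113 and -0.0749. The part of depth and RNA quality in the pair values beyond this was not tested.

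**Figure D3:**
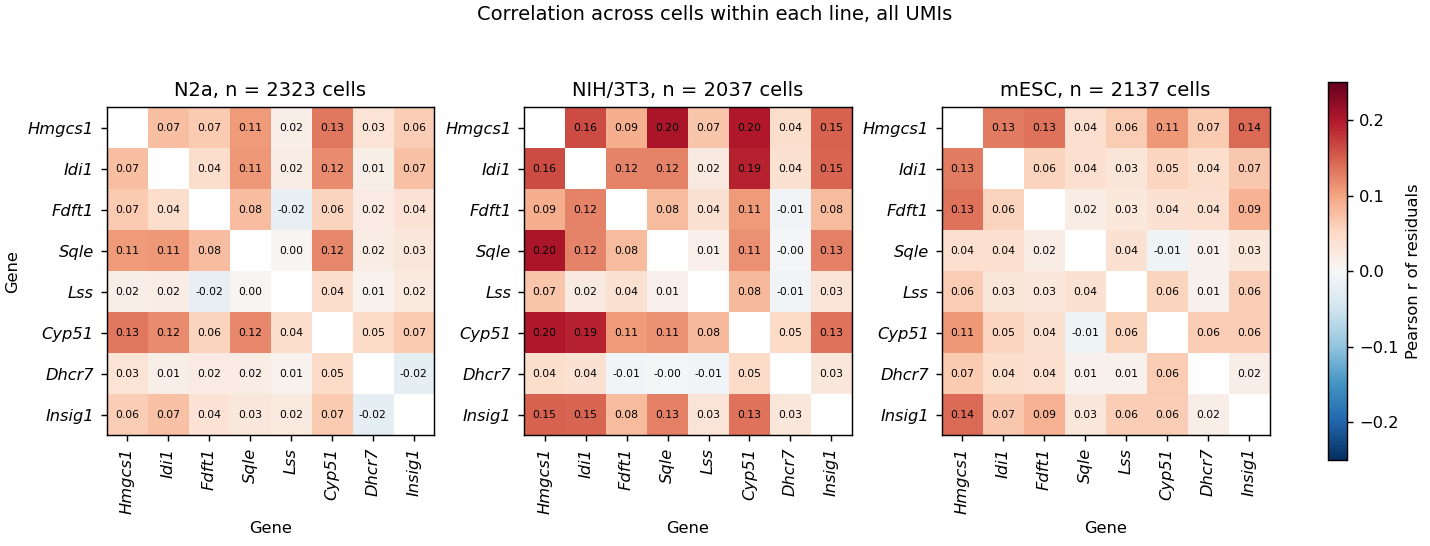
Pearson r across cells for each pair of the 8 genes (rows and columns) in N2a, NIH/3T3 and mESC cells, from residuals of all UMIs, with colour and printed value giving r and the diagonal left blank. The deepest colours are in NIH/3T3 among Hmgcs1, Idi1, Sqle, Cyp51 and Insig1, and the rows of Lss and Dhcr7 are pale in every line.

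The genes differed in how far they took part. In NIH/3T3 the highest pairs were Hmgcs1 with Sqle at 0.204, Hmgcs1 with Cyp51 at 0.199 and Idi1 with Cyp51 at 0.192. In N2a the highest were Hmgcs1 with Cyp51 at 0.132, Sqle with Cyp51 at 0.121 and Idi1 with Cyp51 at 0.119. In mESCs they were Hmgcs1 with Insig1 at 0.141, with Fdft1 at 0.135 and with Idi1 at 0.129. Hmgcs1 and Idi1 were thus each in at least 1 leading pair of every line. Sqle with Cyp51, at 0.121 in N2a and 0.115 in NIH/3T3, was at -0.0105 in mESCs, the lowest pair there, where both genes were also far lower in level.

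Likeness was defined as the correlation of a gene with the sum of the 8 genes, itself left out, and ranked among genes with at least 0.05 UMIs per thinned cell. In the residuals of all UMIs the 8 genes were ranked also where they fell below this level, as Dhcr7 did in NIH/3T3 (0.0293) and Lss and Dhcr7 did in mESCs (0.0285 and 0.0274). With these residuals, in NIH/3T3, Hmgcs1 (0.308), Cyp51 (0.286) and Idi1 (0.268) took ranks 1, 2 and 3 of 6830 genes, and Insig1 (0.230), Sqle (0.228) and Fdft1 (0.170) ranks 6, 7 and 13. In N2a, Cyp51 (0.211), Hmgcs1 (0.181), Sqle (0.178) and Idi1 (0.168) took ranks 4, 5, 6 and 7 of 6801 genes, while Fdft1 (0.104) was at rank 89 and Insig1 (0.0987) at rank 111. In mESCs, Hmgcs1 (0.233) was at rank 1 of 6620 genes, with Insig1 (0.166), Idi1 (0.150), Fdft1 (0.143) and Cyp51 (0.118) at ranks 5 to 8. Lss and Dhcr7 were at ranks 1582 and 1096 in N2a and 133 and 517 in NIH/3T3, but at ranks 11 and 14 in mESCs, although only 194 and 155 UMIs were counted there. Sqle was at rank 157 in mESCs. In cells thinned to 2000 UMIs most of the 8 genes stood further down the ranking. In NIH/3T3, Hmgcs1, Fdft1 and Cyp51 were at ranks 1, 8 and 9, Idi1 at 51, Sqle at 217, Insig1 at 714 and Lss at 5698. In N2a, Sqle was at rank 3, Idi1 at 128, Hmgcs1 at 135, Insig1 at 224, Cyp51 at 813, Fdft1 at 1416, Lss at 3034 and Dhcr7 at 5370. In mESCs, Cyp51 was at rank 105, Insig1 at 185, Fdft1 at 204, Hmgcs1 at 318, Idi1 at 1250 and Sqle at 3035. Lss and Dhcr7 were not ranked in these thinned mESC cells, and none of the other genes of the 8 was among the 20 most alike there. With residuals, the median likeness over all genes came to 0.00583 (N2a), 0.00228 (NIH/3T3) and 0.00186 (mESCs).

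Beyond the 8 genes, those among the 20 most alike in at least 2 lines included Msmo1, Scd2, Fdps and Stard4. Msmo1, the C4-methylsterol oxidase of the steps after Cyp51, had a likeness of 0.238, 0.239 and 0.203 in N2a, NIH/3T3 and mESCs, at ranks 2, 5 and 3. Scd2, a stearoyl-CoA desaturase of fatty acid synthesis, was at 0.225, 0.216 and 0.214, at ranks 3, 9 and 2. Fdps, which makes farnesyl diphosphate, was at ranks 12, 12 and 26, and Stard4, a carrier of sterol between membranes, at ranks 20, 44 and 9. With cells thinned to 2000 UMIs, Msmo1 (ranks 15, 10 and 62) and Scd2 (ranks 521, 7 and 1) remained among the 20 most alike in 2 lines each. Fdps (ranks 704, 25 and 1112) and Stard4 (ranks 885, 310 and 102) did not in any line.

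By list, the 3 synthesis genes most alike were Msmo1, Fdps and Sc5d, the lathosterol oxidase, in N2a and NIH/3T3, with Sc5d at 0.130 and 0.152, and Msmo1, Acat2 (0.0799) and Fdps in mESCs. All 11 measured synthesis genes were positive in N2a, 10 of 12 in NIH/3T3 and 9 of 9 in mESCs. Their medians were 0.0934, 0.108 and 0.0749, against 0.00583, 0.00228 and 0.00186 over all genes measured. In thinned cells 8 of 11, 10 of 12 and 6 of 9 were positive, with medians of 0.0339, 0.0432 and 0.0255. Over all genes measured in thinned cells, 50.6%, 50.8% and 50.5% were positive. Among genes of the sterol-sensing list, Srebf2 led in every line, at 0.120, 0.0770 and 0.0790 with residuals (in thinned cells it led only in mESCs). With residuals the next were at or below 0.0518 (Erlin2 in N2a and mESCs, Ubxn8 in N2a, Erlin1 in NIH/3T3 and mESCs, Marchf6 in NIH/3T3). Among uptake and transport genes, Stard4 led in every line, with residuals and in thinned cells, and with residuals the next (Soat1 and Npc2 in N2a, Lrp8 and Osbp in NIH/3T3, Scarb1 and Npc2 in mESCs) were at or below 0.0422. The efflux genes measured, Abca1, Lpcat3 and Nr1h2, were at or below 0.0412. Among fatty acid genes, Scd2 was followed by Fads2 and Acly in N2a, at 0.0602 and 0.0579, and by Acly and Elovl6 in mESCs, at 0.0739 and 0.0682, while in NIH/3T3 Elovl6, at 0.219, stood just above Scd2, before Fads1 at 0.0995.

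In NIH/3T3 the G2/M genes Mki67, Kif11 and Tpx2 had a likeness of 0.153, 0.124 and 0.122, and 8 of the 15 G2/M genes were in the highest 1% of genes. In thinned cells 3 of the 15 were, and Mki67, Kif11 and Tpx2 were at ranks 303, 242 and 21. There 13 of the 15 were positive, where 50.8% of all genes measured were, with a median of 0.0496. The other synthesis genes had a median of 0.0432 in the same thinned cells. In N2a the leading G2/M genes were Ccnb1, Cdc20 and Bub1, at 0.0457 or less, and in mESCs Cdc20, Ccnb2 and Bub1, at 0.0766 or less. The S-phase genes led with Slbp, Mcm4 and Dtl in N2a, at 0.109 or less, Rrm2, Mcm4 and Rrm1 in NIH/3T3, at 0.0897 or less, and Dtl, Gins2 and Rrm1 in mESCs, at 0.0383 or less.

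To show the size of these relations on the scale of expression, cells of each line were ranked by the summed residual of the 8 genes, and the highest 775, 679 and 713 cells were set against the lowest 774, 679 and 712 in N2a, NIH/3T3 and mESCs. The ranking is a range of a continuous value and not a cell type. The median depth was 6916 against 6134 UMIs in N2a, 5086 against 5101 in NIH/3T3 and 4933.5 against 4529 in mESCs. The 14 other synthesis genes, which the ranking did not use, were 1.35-fold higher in the highest cells of N2a (1.30 to 1.41), 1.38-fold in NIH/3T3 (1.32 to 1.43) and 1.27-fold in mESCs (1.21 to 1.34). The median ratio of all single genes measured was 1.02, 1.01 and 1.01. Msmo1 was 1.91-fold higher in N2a (1.71 to 2.13), 1.72-fold in NIH/3T3 (1.55 to 1.92) and 1.86-fold in mESCs (1.60 to 2.16). Stard4 was 1.61-fold (1.41 to 1.84), 1.45-fold (1.23 to 1.72) and 1.61-fold (1.31 to 2.00) higher, and Scd2 1.36-fold (1.29 to 1.44), 1.32-fold (1.24 to 1.41) and 1.65-fold (1.49 to 1.82). Msmo1 in each line and Stard4 in each line were above more than 99% of genes. Msmo1, Stard4 and Scd2 were named for their likeness to the same summed residual in the same cells. Their ratios restate that likeness as fold differences and are no separate support for it.

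Fatty acid genes were 1.13-fold higher in N2a (1.10 to 1.16), 1.24-fold in NIH/3T3 (1.20 to 1.29) and 1.19-fold in mESCs (1.15 to 1.24). Uptake and transport genes differed by 1.08-fold (1.02 to 1.15), 1.04-fold (0.995 to 1.09) and 1.14-fold (1.05 to 1.24). Genes of the sterol-sensing list differed by 1.07-fold (1.04 to 1.11), 1.04-fold (0.988 to 1.09) and 1.07-fold (1.01 to 1.14). In N2a, Stard4 was the only uptake gene measured whose interval lay above 1. Soat1 was at 1.09 (0.891 to 1.33), and Lrp8, Scarb1, Npc2 and Osbp were at 0.890, 0.930, 0.954 and 0.868. Of the sterol-sensing list in N2a, Srebf2 was at 1.26 and Erlin2 at 1.29, and the other genes measured at 0.918 to 1.21. These list ratios thus do not stand for each gene of the list. Efflux genes stood at ratios of 0.973 (0.899 to 1.05), 1.11 (0.926 to 1.33) and 0.912 (0.791 to 1.05), so no difference was detectable at this depth. G2/M genes were 1.30-fold higher in the highest cells of NIH/3T3 (1.27 to 1.33), with ratios of 0.978 (0.957 to 0.999) in N2a and 1.02 (1.00 to 1.05) in mESCs, and S-phase genes had ratios of 1.16 (1.13 to 1.19) in N2a, 1.04 (1.01 to 1.07) in NIH/3T3 and 1.03 (1.00 to 1.05) in mESCs. The part of the cell cycle in the NIH/3T3 correlations was not tested. The markers of the other lines were compared in the same cells. N2a markers had a ratio of 1.69 (1.10 to 2.66) in NIH/3T3, from 61 against 34 UMIs, and 0.861 (0.703 to 1.05) in mESCs. NIH/3T3 markers had a ratio of 1.33 (1.02 to 1.75) in mESCs, from 137 against 94 UMIs, and 1.15 (1.11 to 1.20) in N2a, where S100a6 gave nearly all of the list's level. For mESC markers the ratio was 0.776 (0.529 to 1.14) in N2a and 1.09 (0.739 to 1.61) in NIH/3T3. Doublets were not called, and the part of doublets or carried-over RNA was not tested.

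**Figure D4:**
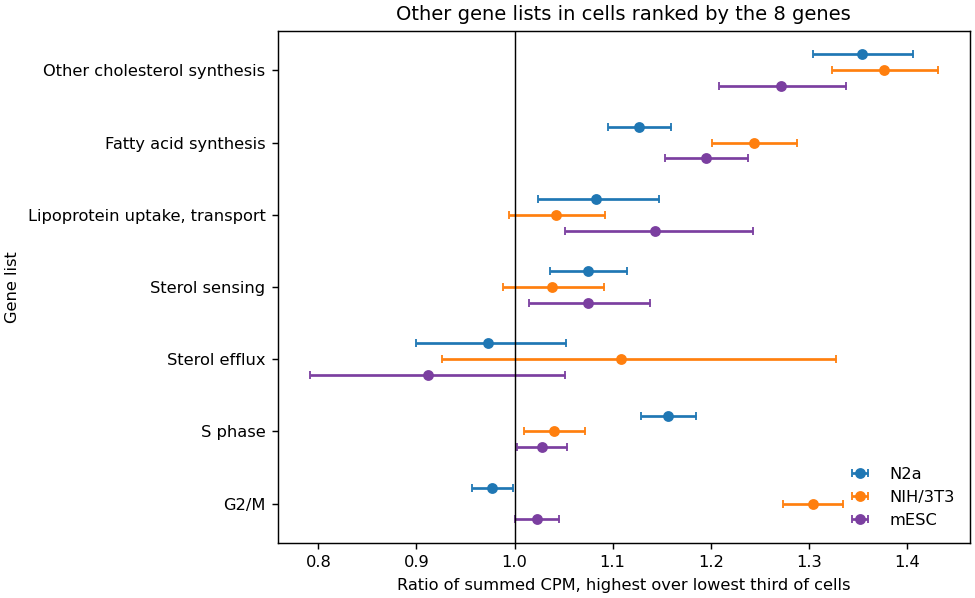
Ratio of summed CPM (x axis) of 7 gene lists (y axis) in the highest over the lowest cells of each line, ranked by the 8 genes and each group being 679 to 775 cells, with N2a in blue, NIH/3T3 in orange and mESCs in purple and bars giving 95% intervals for counting error. The other cholesterol synthesis genes lie at 1.27 to 1.38 in all 3 lines, and G2/M genes lie at 1.30 in NIH/3T3 but at 0.978 in N2a and 1.02 in mESCs.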

How the data were processed

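CapSeq single-cell RNA-seq was measured for N2a, NIH/3T3 and mESC cells in a pooled experiment, with 1 BC1-defined library per line. Per the study's methods, the authors demultiplexed reads by BC1, trimmed the template switching oligo with Cutadapt, and aligned and counted reads with STARsolo on GRCm39 with GENCODE annotation. The authors deposited these as unnormalized counts of UMIs for every gene and barcode. The feature mode, strand setting and cell calling were not given in the sources used here. The pooled matrix of the same reads served only as an alternative, and 0 columns of other samples were left out.

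From these counts, cells of 1000 UMIs or more, with 20% mitochondrial UMIs or less, were kept, as in the study's methods. Levels are CPM of summed UMIs with exact Poisson intervals, and ratios carry exact conditional binomial intervals, all at the 95% level and for counting error only. The lines held 17955221 (N2a), 11697865 (NIH/3T3) and 12322098 (mESC) UMIs in cells. A gene was called different at 2-fold or more, with at least 10 CPM in either line, and a line with fewer than 3 UMIs was set to 3. Correlations used cells thinned to 2000 UMIs (seed 11), and Pearson residuals of all UMIs, added after the thinned values were seen. The counting strand could move reads between overlapping genes, and no length scaling was made, so levels were compared between lines and not between genes. Positions came from GENCODE M39 on GRCm39.

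The 8 genes and all lists were chosen with earlier results of these data known. The text names the 8 genes in every line, the 3 genes of each other list with the largest ratio between any pair of lines and the 3 of highest likeness in each line, and all genes among the 20 most alike in at least 2 lines. Some genes that meet this rule are not reported here. Roles of genes are background. Scripts ran in Python 3.11.15 with scipy 1.17.1, matplotlib 3.10.9, numpy 2.4.6 and pandas 2.3.3. Poisson counts were simulated from the N2a profile at the depths of N2a and NIH/3T3, over 9261 genes. The interval held the true ratio for 190 of 200 changed genes, and 107 of 107 genes changed 4-fold were called. These counts hold counting error only, so they check the calculation and not the spread of real cells or cultures. Calls of genes changed 2-fold were not scored. Alternatives changed the cells, denominator, fold, minimum level, thinning depth, seed and scale.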

Additional observations from a re-analysis of the deposited data

How the results depend on the processing

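No paired analysis was possible because each line was 1 library, with no replicates to pair between lines. All 192 recomputed log2 ratios of the 8 genes between lines stayed within their counting interval. Of these, 1 changed sign, that of Fdft1 for N2a over NIH/3T3 (0.03, and -0.0093 with UMIs outside mitochondrial and ribosomal protein genes as denominator), and that of Lss for N2a over mESCs (1.03) fell under 2-fold with all barcodes (0.98). The summed level of the 8 genes moved beyond its interval with all barcodes (823.3 CPM in N2a and 1232.5 in NIH/3T3), with UMIs outside mitochondrial and ribosomal protein genes as denominator (925.8, 1431 and 575.0 CPM in N2a, NIH/3T3 and mESCs) and as a mean over cells (821.7, 1216 and 498.4 CPM), and the order of the lines was the same in each. The count of 2 genes at least 2-fold apart between N2a and NIH/3T3 became 1 without the 5% deepest cells, as a mean over cells or with at least 50 CPM, 5 at 1.5-fold and 0 at 3-fold. The 3 genes between N2a and mESCs became 6 at 1.5-fold, 1 at 3-fold and 1 with at least 50 CPM.

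The mean correlation of 0.0115, 0.0186 and 0.0169 in N2a, NIH/3T3 and mESCs moved with thinning to 1000 UMIs (0.00196 in N2a), with thinning to 4000 UMIs (0.0285, 0.0718 and 0.0303), with another seed (0.0390 in NIH/3T3), without the 5% deepest cells (0.0277 in NIH/3T3), on a log scale without thinning (0.0649, 0.0898 and 0.0567) and with residuals of all UMIs (0.0495, 0.0868 and 0.0546). It was positive in each of these. The members among the 20 most alike genes numbered 1, 3 and 0 when thinned to 2000 UMIs. They numbered 0, 1 and 1 at 1000 UMIs, 3 in mESCs with another seed, 5 in NIH/3T3 and 3 in mESCs on the log scale, and 4, 6 and 7 with residuals of all UMIs. The 7 in mESCs include Lss and Dhcr7, at ranks 11 and 14. Both were below 0.05 UMIs per thinned cell there and were not ranked in mESCs thinned to 2000 UMIs. The counts of 0 and 7 in mESCs are therefore not over the same ranked genes. The variation of the summed genes beyond counting, 10.2%, 12.3% and 17.1% of the squared mean, became 14.5% in N2a without the 5% deepest cells, 19.9% and 18.9% in NIH/3T3 at 4000 UMIs and with another seed, and 31.8% in mESCs at 1000 UMIs. All alternatives of this variation, the other seed for likeness and the residuals were chosen after seeing the data. The cause of these shifts was not tested.

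The number of all genes at least 2-fold apart moved most with the minimum level: with at least 10 UMIs in both lines together it was 8239, 9449 and 9392 for N2a against NIH/3T3, N2a against mESCs and NIH/3T3 against mESCs, instead of 3881, 4467 and 4524, and with at least 50 CPM 1867, 2140 and 2168. With 1 library per line, nothing here measures the spread between cultures. At a median of 1 or 2 UMIs of the 8 genes per thinned cell, correlations between single genes are limited by depth.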
